A study of Homo sapiens with 12 samples.

Results

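Iron- and 2-oxoglutarate-dependent dioxygenases were followed as 51 genes, chosen by symbol from the TET, JmjC, ALKBH and FTO, HIF hydroxylase, collagen hydroxylase, aspartyl and ribosomal hydroxylase and carnitine families, of 20323 genes in the deposited tables. RNA sequencing libraries labelled A549, an established human lung adenocarcinoma line, formed 4 groups of 3. They were LKB1-deficient cells pretreated with high-dose AA, LKB1-deficient cells pretreated with PBS, and the same treatments of cells with the genotype label WT, which the series design calls intact. AA is ascorbate, named vitamin C in the sample titles, and PBS is phosphate-buffered saline. LKB1 is a serine/threonine kinase encoded by STK11. A549 is widely described as carrying an inactivating STK11 mutation, but the sources used here do not say how either genotype was obtained, whether it is a single clone, or at what dose and for how long the cells were pretreated. Whether the 3 libraries of a group are separate cultures is not stated, and the spread behind each p-value may be only technical.

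Each of these enzymes holds an iron atom that must stay in its reduced state, uses oxygen and 2-oxoglutarate to hydroxylate or demethylate its substrate, and releases succinate and carbon dioxide. Ascorbate returns oxidised iron to the reduced state in many of them, which is why its lack impairs collagen hydroxylation in scurvy. The family erases methyl groups from DNA, RNA and histones, marks HIF-alpha proteins for destruction when oxygen is present, and stabilises the collagen triple helix. RNA levels, which were measured here, say nothing of the activity of the enzymes.

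Library totals ran from 16055534 to 20306129 estimated counts, and the 51 genes took 0.292 to 0.313% of them. STK11 averaged 5.79 ± 0.862 counts scaled to library size (CPM, TMM-scaled) in deficient and 24.5 ± 0.917 CPM in intact cells under PBS (SD, n = 3 each), a log2 difference of -2.08 ± 0.11 (SE), so its direction fits the genotype labels. Under AA it averaged 6.64 ± 0.910 CPM in deficient and 26.0 ± 2.005 CPM in intact cells. The labelled line was checked against marker genes. The simple-epithelial keratins KRT8 and KRT18 averaged 755 and 696 length-normalised FPKM units over the 12 libraries, but KRT19 averaged 0.164, EPCAM 5.64 and CDH1 0.293 FPKM. Of the 6 alveolar type II markers, 2 passed the low-count filter: ABCA3, which averaged 25.8 FPKM, and LAMP3. The others, SFTPC, SFTPB, SFTPA1 and NKX2-1, each totalled under 10 counts over all libraries. CDKN2A, which A549 is widely described as lacking through a deletion, averaged 91.5 FPKM and lay between 60.5 and 120.2 FPKM in every library. ALDH1A1, described as abundant in A549 and looked up after the other values had been seen, averaged 0.00883 FPKM. The data therefore go against the A549 label, and the cells are called by their genotype labels only. Markers of blood, endothelial and fibroblast cells (PTPRC, CD3E, CD14, PECAM1, VWF, COL1A2, DCN and LUM) all failed the low-count filter, and CD3E and COL1A2 had no count in any library.

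Most of the family was expressed. The low-count filter (a minimum count of 10, set by group) left 49 of the 51 genes and 12718 of all genes. The 2 that failed were BBOX1, which makes the last step of carnitine synthesis and totalled 5 counts over the 12 libraries, and P4HA3, a collagen prolyl hydroxylase subunit with 27 counts. By FPKM, which divides by transcript length and so allows genes to be compared, 46 members averaged at least 1. The highest was ASPH, an aspartyl hydroxylase of the endoplasmic reticulum, at 95.0 FPKM over the 12 libraries. Then came the histone demethylase KDM5C at 55.9, the ribosomal prolyl hydroxylase OGFOD1 at 53.7, the lysyl hydroxylase PLOD1 at 44.4, the HIF prolyl hydroxylase EGLN1 at 42.7 and the collagen prolyl hydroxylase P4HA1 at 39.4 FPKM. ASPH lay above the other 5 in every library, KDM5C and OGFOD1 overlapped in their library ranges, and so did PLOD1, EGLN1 and P4HA1. Within families the levels were far apart. EGLN2 averaged 22.3 and EGLN3 0.345 FPKM against the 42.7 of EGLN1, and TET3 and TET2 averaged 4.16 and 3.05 FPKM where TET1 averaged 0.0505.

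**Figure D1:**
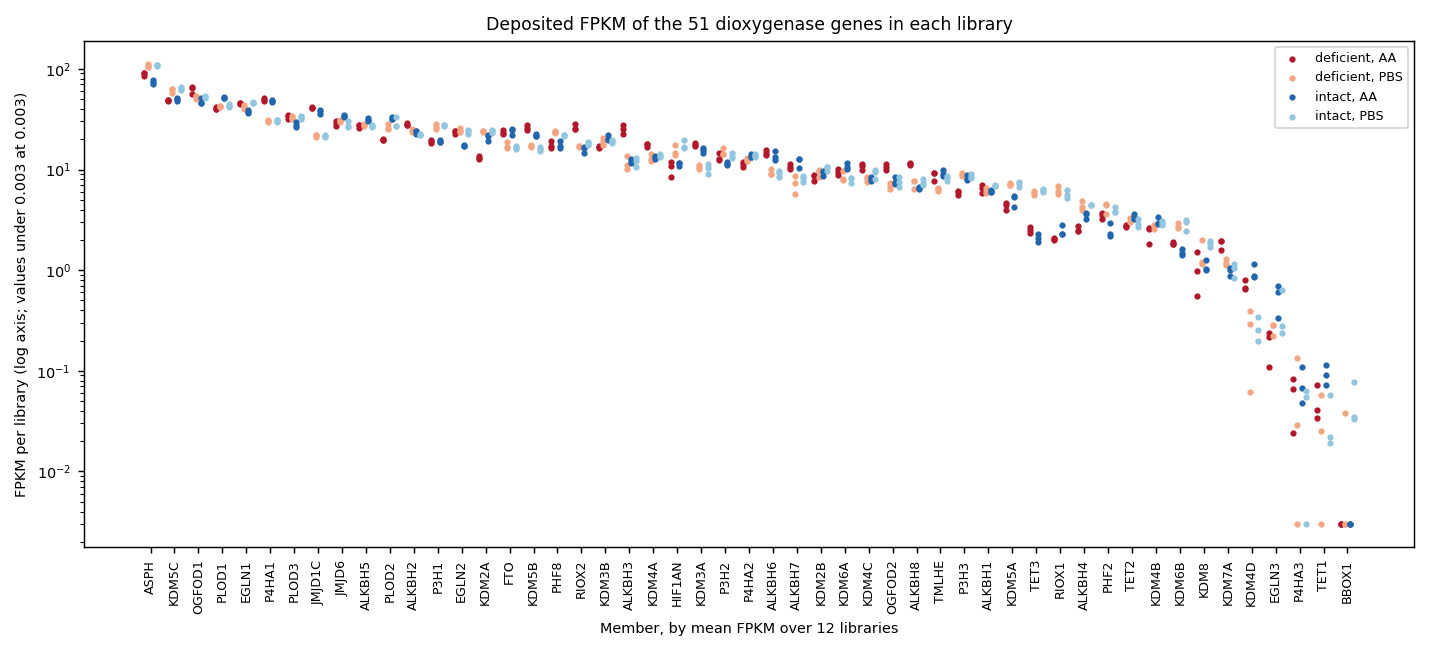
Deposited FPKM of each of the 51 dioxygenase genes (log axis; values under 0.003 are drawn at 0.003), ordered by the mean over 12 libraries, with 1 point per library coloured by group. ASPH leads at a mean of 95.0 FPKM, and EGLN3, P4HA3, TET1 and BBOX1 lie below 0.5 FPKM.

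Several members are known targets of the hypoxia-inducible factors, which bind the core letters ACGTG of a hypoxia response element. RefSeq promoters (GRCh38.p14) were matched by symbol for 46 members, and the 250 bases before the RefSeq start were searched for ACGTG on both strands. It stood in 10 of the 46 (21.7%), against 5101 of 27305 promoters in the table (18.7%). The 10 were EGLN1, EGLN2, TET2, TET3, PLOD2, P4HA1, KDM4B, KDM4C, KDM6A and KDM7A. The cyclic AMP response element TGACGTCA stood in no member and in 1.77% of all promoters. The letters TGATGNAA, read by the amino acid response factors, stood in no member and in 3.19% of all, and the AP-1 site TGANTCA in 6.52% of members and 6.60% of all. Of the 10, the windows of PLOD2, P4HA1, KDM4C and EGLN1 are shown, HIF-linked members picked because their responses to AA, given below, were unlike. Each is read 5′ to 3′ on the strand of its gene, with ACGTG or its reverse complement CACGT, or the CACGTG that joins both, in capitals. PLOD2 lies at chr3:146161185-146161434 on the minus strand (bases -250 to -1 from the start), P4HA1 at chr10:73096935-73096964 minus (-98 to -69), KDM4C at chr9:6757898-6757927 plus (-75 to -46) and EGLN1 at chr1:231422288-231422317 minus (-30 to -1). In the GENCODE 29 annotation the bounds of all 4 genes start farther upstream, so the windows lie inside the annotated gene there.
PLOD2: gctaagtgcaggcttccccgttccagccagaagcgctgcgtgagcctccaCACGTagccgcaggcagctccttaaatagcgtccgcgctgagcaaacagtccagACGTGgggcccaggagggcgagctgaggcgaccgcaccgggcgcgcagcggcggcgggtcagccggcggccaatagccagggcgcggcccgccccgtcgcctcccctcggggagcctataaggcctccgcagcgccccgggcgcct
P4HA1: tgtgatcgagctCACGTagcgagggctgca
KDM4C: tgtttgtaagccCACGTGactcaccaagtg
EGLN1: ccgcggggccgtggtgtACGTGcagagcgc
A match is only a match of letters, not a site.

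AA changed most of the family in both genotypes, up in some members and down in others. In LKB1-deficient cells, 18 of the 49 tested members rose and 23 fell under AA relative to PBS, at a Benjamini-Hochberg adjusted p under 0.05 from edgeR's quasi-likelihood test over all 12718 genes. That is 41 members, where 74.4% of all tested genes were called (37.0% higher and 37.4% lower). In intact cells 16 rose and 19 fell, 35 in all, beside 69.8% of all tested genes (34.5% higher and 35.2% lower). The members' shares, 83.7% and 71.4%, lie near that background. The median log2 change of the tested members was -0.13 in deficient and -0.029 in intact cells, against 0.013 and 0.0069 for all tested genes. AA and PBS libraries did not overlap for 18 members above and 25 below in deficient cells, beside 75.5% of all tested genes, and for 18 above and 20 below in intact cells, beside 72.8%. Called changes of at least 0.5 on the log2 scale numbered 22 in deficient and 14 in intact cells, where 39.7% and 30.5% of all tested genes passed that limit. Called changes of at least 1 on the log2 scale numbered 5 in deficient cells (KDM4D, ALKBH3, HIF1AN, TET3 and RIOX1) and 4 in intact cells (KDM4D, TET1, RIOX1 and TET3), where 14.5% and 10.1% of all tested genes passed that limit. These all-gene shares and medians are the background for every list of genes below. Of the members' calls, 26 of 41 in deficient and 24 of 35 in intact cells held under every alternative, and not every loss is given with its member. Members not called here gained a call under at least 1 alternative: EGLN1, KDM4B, KDM6A and PLOD3 in deficient cells, and KDM3B, KDM4A, KDM4B, KDM4C, KDM7A, KDM8, ALKBH2, ALKBH3, OGFOD1 and EGLN3 in intact cells. On FPKM values the split in intact cells was 11 up and 20 down, and with upper quartile scaling 19 up and 15 down. RIOX2, OGFOD2 and ALKBH4 share 27.6, 35.9 and 25.3% of their exonic length with CRYBG3, ABCB9 and ORAI2 on the opposite strand, and whether counting used strand is not given, so their values are uncertain.

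Between the genotypes, 9 members rose in both (KDM3A, JMJD1C, KDM4D, KDM5B, ALKBH6, ALKBH7, FTO, P4HA1 and TMLHE) and 15 fell in both (TET3, KDM2A, KDM2B, KDM5A, KDM5C, KDM6B, PHF2, PHF8, RIOX1, ALKBH4, EGLN2, HIF1AN, P3H1, P3H2 and ASPH). The AA effect itself differed between deficient and intact cells in 28 members, 14 higher and 14 lower in deficient cells, where 44.6% of all tested genes differed (21.6% higher and 23.0% lower). Of these, 8 reached 0.5 on the log2 scale, beside 16.9% of all tested genes, and 1 (ALKBH3) reached 1, beside 3.54%. None of the 9 that rose in both differed by that test, and 9 of the 15 that fell in both did. With the length trend removed, JMJD1C (0.20), KDM5B (0.23) and FTO (-0.27) of the 9 and KDM6B (0.36) of the 15 gained a called difference. Leaving out 1 library did the same for KDM5B (intact AA replicate 2, intact PBS replicate 1 or deficient AA replicate 3), FTO (intact AA replicate 3, deficient AA replicate 2 or deficient PBS replicate 2), KDM6B (intact PBS replicate 3) and KDM2B (deficient PBS replicate 3), with adjusted p of 0.0212 to 0.047. Calls pointed in opposite directions for 5 members: RIOX2 rose in deficient and fell in intact cells, and TET2, JMJD6, PLOD1 and PLOD2 fell in deficient and rose in intact cells. All 5 had a called difference. Each of them lost at least 1 of its opposite calls under some alternative. With the length trend removed, TET2 became 0.36 in deficient cells and PLOD1 was -0.048 there (edgeR adjusted p = 0.238). RIOX2 in intact cells was then not called (0.162). On the log2(FPKM + 1) scale JMJD6 in deficient cells (limma adjusted p = 0.211) and PLOD2 in intact cells (0.0646) were not called. Another 12 members were called in deficient cells alone, 10 of them with a called difference, and 6 in intact cells alone, 3 of them with one. Shares of all tested genes in these classes were not counted. With 74.4% of all tested genes called in deficient and 69.8% in intact cells, the class sizes describe the members and are not shown to be particular to them. On the log2(FPKM + 1) or log2(FPKM + 0.1) scale 9 of the 28 differences were lost (TET2, TET3, KDM4B, KDM5A, KDM7A, PHF2, RIOX1, HIF1AN and P4HA2). Over all genes called, the share higher in deficient cells was 48.4%, against 57.9% with library-size scaling and 60.3% on FPKM values. The difference reuses the libraries of both AA comparisons and is not independent of them.

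**Figure D2:**
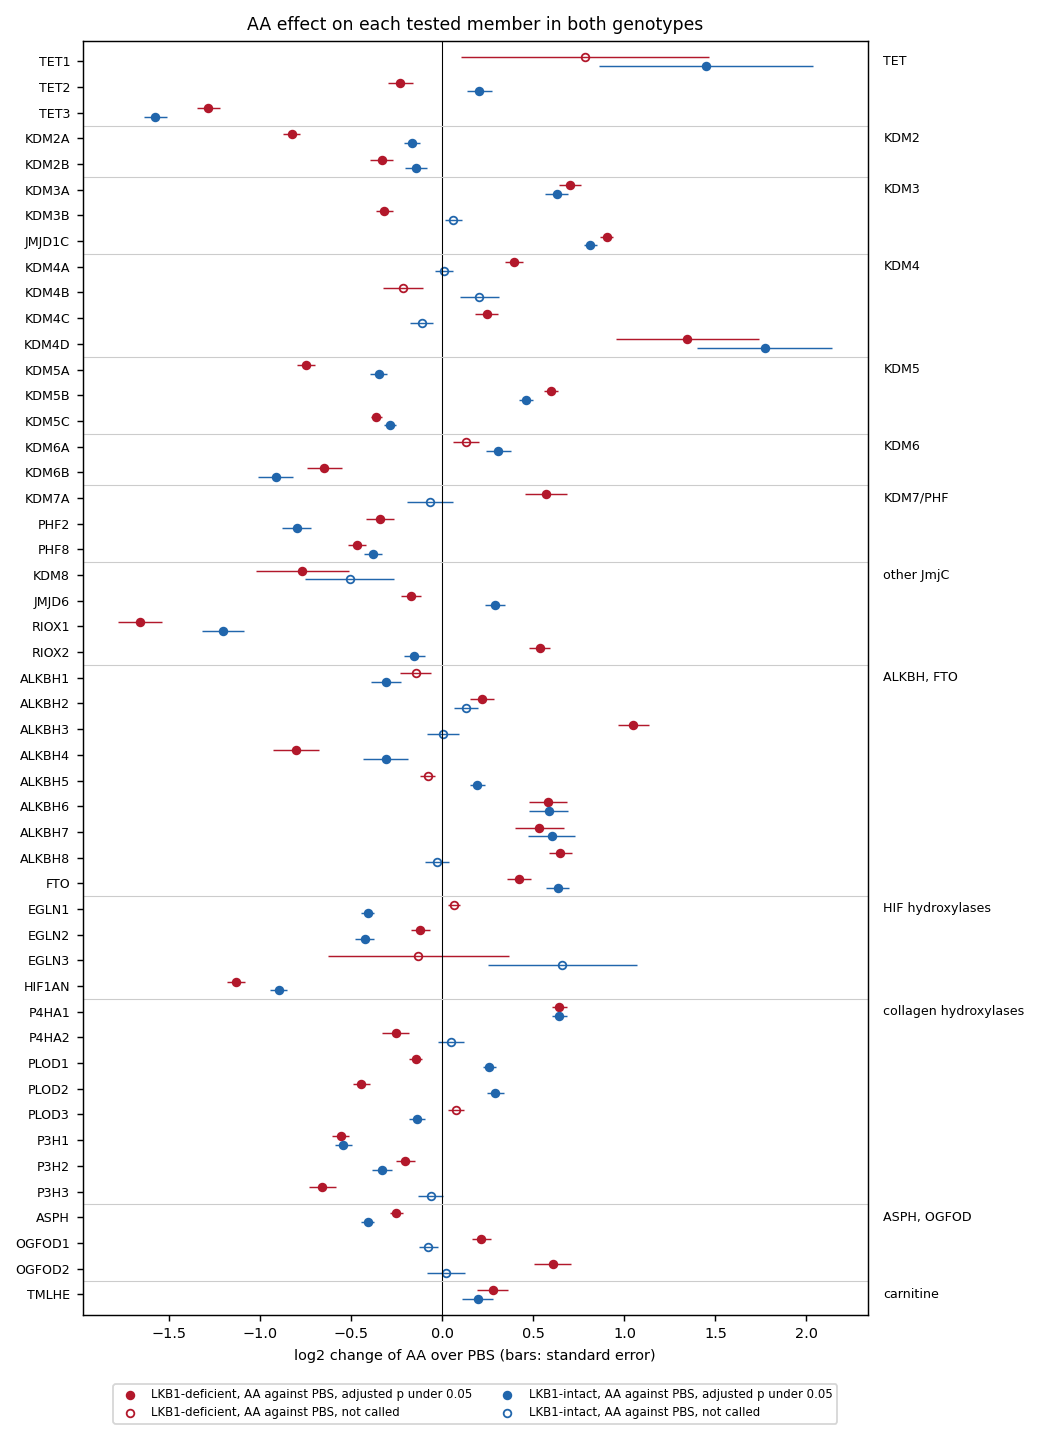
Log2 change of AA over PBS for each of the 49 tested members in LKB1-deficient (red) and LKB1-intact cells (blue), with bars of 1 standard error; filled points passed an adjusted p of 0.05. RIOX1 and TET3 lie lowest and KDM4D highest, and ALKBH3 stands at 1.05 in deficient and near 0 in intact cells.

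The TET enzymes oxidise 5-methylcytosine in DNA as the start of its removal. TET3 (ENSG00000187605; chromosome 2, 73986404 to 74108176, plus strand, GENCODE 29 on GRCh38) fell in both genotypes. It had 29.3, 31.4 and 27.5 CPM in deficient AA libraries and 67.8, 75.2 and 71.9 CPM in deficient PBS libraries, a log2 change of -1.29 ± 0.062 (edgeR adjusted p = 4.42e-14). AA libraries of intact cells had 25.3, 27.5 and 23.1 CPM and intact PBS libraries 77.3, 75.7 and 73.2 CPM, a change of -1.58 ± 0.063 (edgeR adjusted p = 4.42e-15). Every AA library lay far below every PBS library, and the fall was smaller in deficient cells by 0.29 ± 0.089 (edgeR adjusted p = 0.0109). TET2 averaged 25.3 ± 0.443 CPM under AA and 29.7 ± 1.57 under PBS in deficient cells, and 32.4 ± 1.69 and 28.2 ± 2.53 CPM in intact cells (SD, n = 3 each). Its effects of -0.23 and 0.20 had opposite signs (both positive, 0.36 and 0.67, with the length trend removed) and differed by -0.43 ± 0.099 (edgeR adjusted p = 0.00107). The rise in intact cells was lost without intact AA replicate 2 or intact PBS replicate 2 (adjusted p = 0.0632 and 0.0982). TET1 was scarce. It had 0.671, 0.383 and 0.315 CPM in deficient AA, 0.245, 0 and 0.553 in deficient PBS, 0.708, 1.11 and 0.879 in intact AA and 0.189, 0.216 and 0.562 CPM in intact PBS libraries. Its log2 change was 0.78 ± 0.68 in deficient cells, where the groups overlapped (edgeR adjusted p = 0.303), and 1.45 ± 0.59 in intact cells (edgeR adjusted p = 0.0329). That second call was lost without intact AA replicate 2 or 3 (adjusted p = 0.103 and 0.0633) or intact PBS replicate 1 or 2 (0.116 and 0.121), and the genotypes' effects did not pass the test of their difference (-0.66 ± 0.93).

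Of 8 further genes that write, read or complete DNA methylation, 1 rose and 5 fell in deficient cells, and 2 rose and 5 fell in intact cells. TDG, the glycosylase that excises oxidised methylcytosine after TET, fell by 0.66 in deficient and 0.30 in intact cells, and UHRF1, which brings the maintenance methyltransferase to replicated DNA, fell by 0.48 and 0.32. OGT, a partner of the TET proteins, changed by -0.36 in deficient and -0.65 in intact cells. The fall of OGT was smaller in deficient cells by 0.28 ± 0.054, as for TET3.

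KDM2A and KDM2B bind unmethylated CpG islands and demethylate histone tails there. KDM2A (chromosome 11, 67119269 to 67258087, plus strand) had 84.4, 78.2 and 75.1 CPM in deficient AA and 138, 146 and 139 CPM in deficient PBS libraries, a change of -0.83 ± 0.045 (edgeR adjusted p = 2.97e-13). In intact cells it had 125, 130.4 and 119 CPM under AA and 143, 138 and 139 CPM under PBS, a change of -0.17 ± 0.043 (edgeR adjusted p = 0.00175; 0.13 with the length trend removed). The groups did not overlap in either genotype, and the fall was larger in deficient cells (-0.66 ± 0.062, edgeR adjusted p = 1.77e-08). KDM2B fell by 0.33 in deficient and by 0.15 in intact cells, the second of which rests on small margins: leaving out any of intact AA replicates 1, 2 and 3 or intact PBS replicates 1 and 3 ended the call (adjusted p of 0.0624 to 0.116).

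The KDM3 enzymes remove methyl groups from a repressive histone lysine. JMJD1C rose in both genotypes. It had 336, 343 and 332 CPM in deficient AA libraries against 176, 182 and 183 in deficient PBS libraries (0.90 ± 0.034, edgeR adjusted p = 6.69e-16). Intact cells gave, under AA, 321, 328 and 301 CPM and intact PBS libraries 183, 182 and 176 CPM (0.81 ± 0.034, edgeR adjusted p = 8.55e-15). AA libraries of both genotypes stood far above their PBS libraries, and the effects differed by 0.089 ± 0.048, which was not called (0.14 with library-size scaling and 0.20 with the length trend removed, both called). KDM3A, also a HIF target, rose by 0.70 ± 0.062 in deficient and 0.63 ± 0.062 in intact cells. KDM3B differed from both and averaged 87.6 ± 1.45 CPM under AA and 109 ± 5.57 under PBS in deficient cells, a fall, and 116 ± 7.27 and 112 ± 2.01 CPM in intact cells, where the groups overlapped and the change was called only with upper quartile scaling (0.12) and with the length trend removed (0.34).

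KDM4 enzymes act on repressive histone lysine methylation as well. KDM4A and KDM4C rose in deficient cells by 0.39 ± 0.051 and 0.24 ± 0.062, and their changes of 0.0081 and -0.11 in intact cells were not called, with called differences of 0.38 ± 0.072 and 0.36 ± 0.088. Leaving out intact PBS replicate 3 brought the intact change of KDM4C to -0.16 (edgeR adjusted p = 0.037), and with the length trend removed that of KDM4A was 0.18 and called. KDM4B, a HIF target, had effects of -0.22 and 0.20, neither called, that differed by -0.42 ± 0.15 (edgeR adjusted p = 0.0306). The deficient effect was called without deficient AA replicate 1 (-0.32, adjusted p = 0.0228) and became 0.13, not called, with the length trend removed. The intact effect was called without deficient AA replicate 2 (adjusted p = 0.0442), with upper quartile scaling (0.27) and with the length trend removed (0.47). The difference was lost without intact AA replicate 1, intact PBS replicate 1 or 3, deficient AA replicate 2 or deficient PBS replicate 1 (adjusted p of 0.0603 to 0.0922). KDM4D, a testis-enriched gene, was rare but rose in both genotypes. It had 1.73, 2.14 and 1.78 CPM in deficient AA and 0.858, 0.182 and 1.17 CPM in deficient PBS libraries (1.35 ± 0.39, edgeR adjusted p = 0.00394). The intact AA libraries held 2.23, 3.34 and 2.53 CPM and intact PBS libraries 0.755, 0.595 and 1.01 CPM (1.77 ± 0.37, edgeR adjusted p = 0.00023). AA libraries lay above PBS libraries in both genotypes.

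KDM5 enzymes take methyl groups from a lysine that marks active promoters, and their 3 members split. KDM5A had 37.9, 36.7 and 36.9 CPM in deficient AA and 61.4, 63.0 and 63.0 CPM in deficient PBS libraries (-0.75 ± 0.049, edgeR adjusted p = 7.24e-12). In intact cells it had 49.3, 46.5 and 45.6 CPM under AA and 59.9, 62.0 and 58.2 CPM under PBS (-0.35 ± 0.048, edgeR adjusted p = 1.22e-06), with no overlap in either genotype and a larger fall in deficient cells (-0.40 ± 0.068). KDM5B rose by 0.60 ± 0.039 in deficient and 0.46 ± 0.039 in intact cells. KDM5C, on the X chromosome, fell by 0.36 in deficient and 0.29 in intact cells. With the length trend removed, neither change of KDM5C was called (-0.031 and -0.035), nor was that of KDM5A in intact cells (0.090). The difference of KDM5A was not called on the log2(FPKM + 1) scale (limma adjusted p = 0.362).

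KDM6A and KDM6B remove the histone mark of the Polycomb system. KDM6B had 11.9, 11.8 and 12.3 CPM in deficient AA and 19.98, 18.4 and 18.1 CPM in deficient PBS libraries (-0.65 ± 0.096, edgeR adjusted p = 2.77e-06). Its intact AA libraries had 11.1, 10.1 and 9.67 CPM and its intact PBS libraries 20.3, 21.3 and 16.5 CPM (-0.92 ± 0.098, edgeR adjusted p = 3.37e-08). All AA libraries were below all PBS libraries of their genotype. KDM6A averaged 47.1 ± 3.08 CPM under AA and 38.1 ± 3.35 under PBS in intact cells and rose there, whereas its change of 0.13 ± 0.070 in deficient cells was not called. It was called there without deficient PBS replicate 2 (0.20, adjusted p = 0.0261), with upper quartile (0.17) or library-size scaling (0.19) and with the length trend removed (0.41).

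The KDM7 enzymes join a PHD finger, which reads a histone mark, to the demethylase fold. KDM7A had 17.6, 17.5 and 14.3 CPM in deficient AA libraries and 10.7, 10.6 and 11.9 CPM in deficient PBS libraries (0.57 ± 0.12, edgeR adjusted p = 0.000154). Intact AA and PBS libraries overlapped, with 9.70, 8.06 and 9.31 CPM and 9.75, 10.8 and 7.81 CPM (-0.067 ± 0.13, not called). The difference of 0.64 ± 0.17 was called (edgeR adjusted p = 0.00454). PHF2 and PHF8 fell in both genotypes, PHF2 less so in deficient (-0.34) than in intact cells (-0.80; difference 0.46 ± 0.11), and PHF8 by 0.47 and 0.38.

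The remaining JmjC enzymes hydroxylate proteins. RIOX1, which hydroxylates a histidine of a ribosomal protein, fell most of all members in deficient cells. It had 4.94, 4.93 and 4.77 CPM in deficient AA and 15.2, 17.01 and 14.1 CPM in deficient PBS libraries, 3.16-fold lower (-1.66 ± 0.12, edgeR adjusted p = 3.43e-11). In intact cells, AA libraries had 7.03, 5.61 and 5.74 CPM and intact PBS libraries 13.1, 13.8 and 15.5 CPM, 2.31-fold lower (-1.21 ± 0.12, edgeR adjusted p = 7.12e-09). The called difference of -0.46 ± 0.17 was lost without any one of intact AA replicate 1, intact PBS replicates 1 and 2, deficient AA replicate 3 or deficient PBS replicate 2 (adjusted p of 0.0588 to 0.115). Its paralogue RIOX2 averaged 69.8 ± 5.39 CPM under AA and 48.1 ± 1.52 under PBS in deficient cells, and 44.6 ± 2.81 and 49.7 ± 1.26 CPM in intact cells (SD, n = 3 each). RIOX2 thus rose in deficient cells and fell in intact cells, with a difference of 0.69 ± 0.083 (edgeR adjusted p = 7.08e-07), and the fall in intact cells was lost without intact AA replicate 1 (adjusted p = 0.159) or intact PBS replicate 1 (0.0863). That fall was also lost by DESeq2 (adjusted p = 0.0538), with upper quartile scaling (0.183) and with the length trend removed (0.162). JMJD6, a lysyl hydroxylase of splicing factors, averaged 46.9 ± 2.79 CPM under AA and 52.9 ± 1.57 under PBS in deficient cells, and 59.1 ± 1.73 and 48.3 ± 3.26 CPM in intact cells. Its small fall in deficient cells was lost without deficient AA replicate 2 (adjusted p = 0.0628) and with library-size scaling (0.071). On the log2(FPKM + 1) and log2(FPKM + 0.1) scales that fall was not called either (limma adjusted p = 0.211 and 0.212). The difference of -0.46 ± 0.080 for JMJD6 was called. KDM8 changed by -0.77 ± 0.26 in deficient cells, a call lost without deficient AA replicate 3 (adjusted p = 0.0681) or deficient PBS replicate 1 (0.09), and by -0.51 ± 0.24 in intact cells, which was not called but was so without deficient AA replicate 3 (0.0415), on FPKM values and in a fit of the 6 libraries alone.

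Among all 24 TET and JmjC members, 8 rose and 13 fell in deficient cells (median log2 change -0.22), and 8 rose and 10 fell in intact cells (median -0.090). Of 22 histone methyltransferases, their partners and KDM1 demethylases, 2 rose and 16 fell in deficient cells (median -0.51; 37.4% of all tested genes fell), and 3 rose and 16 fell in intact cells (median -0.51; 35.2%). KMT2D, which methylates the lysine that KDM5 enzymes demethylate, fell by 1.68 in deficient and 1.63 in intact cells, and KMT2A by 1.24 and 1.05. Over all tested genes the AA effect moved with transcript length, as given below. Whether the falls of this list, KMT2D and KMT2A among them, remain with the length trend removed was not tested. EZH2, the Polycomb methyltransferase opposed by KDM6, rose in deficient cells by 0.71 ± 0.033, changed by -0.059 ± 0.035 in intact cells, and differed by 0.77 ± 0.048.

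**Figure D3:**
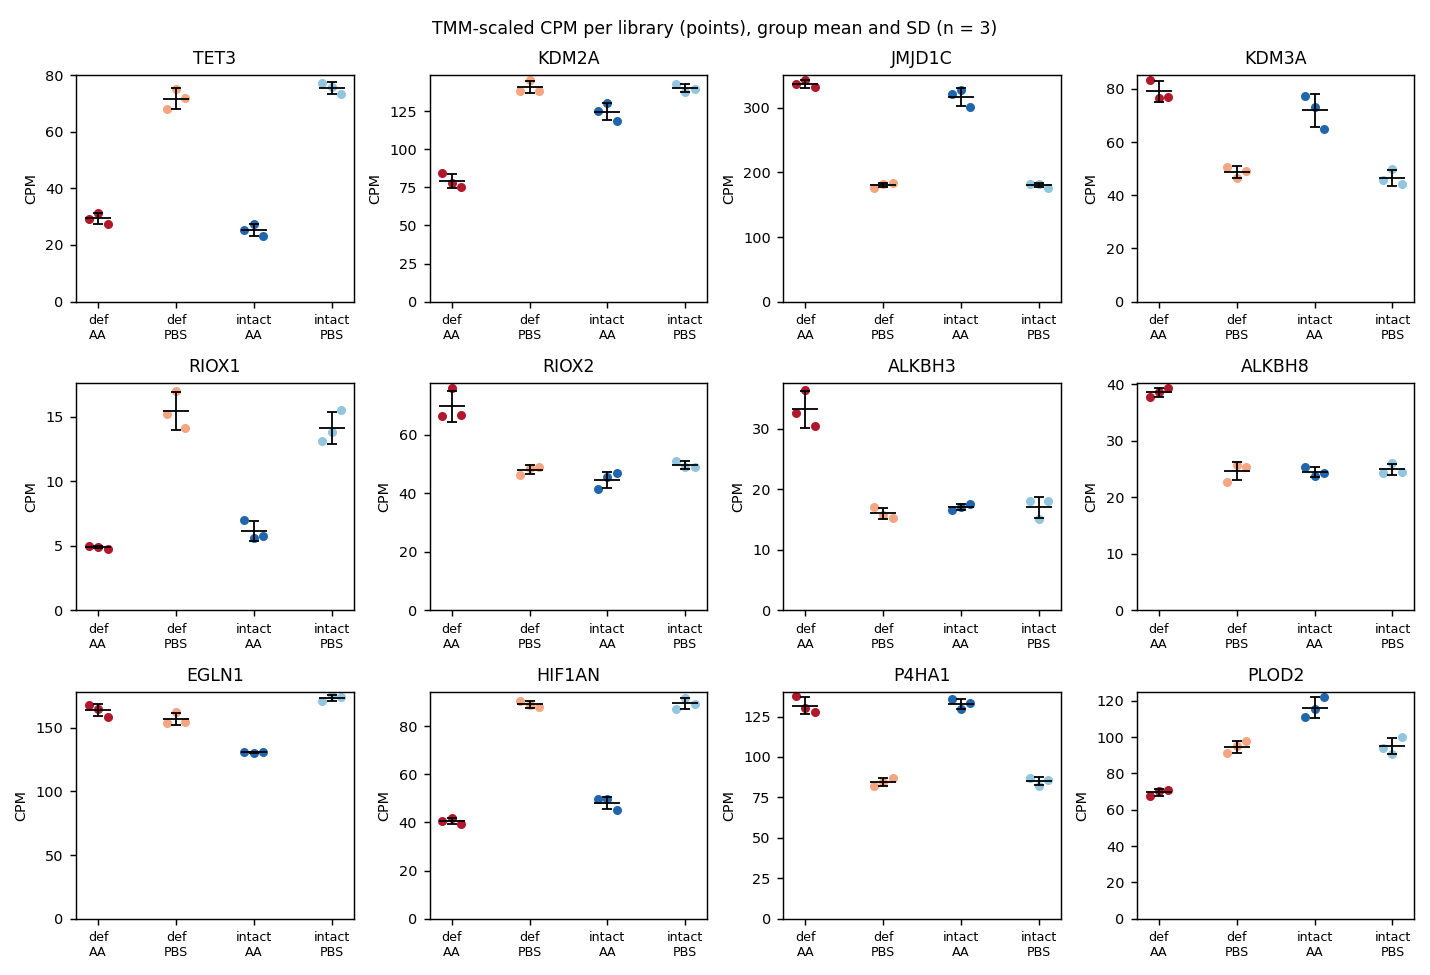
TMM-scaled CPM of 12 members in each of the 12 libraries (points), with the group mean and SD (n = 3), for deficient AA, deficient PBS, intact AA and intact PBS libraries; each vertical axis starts at 0. TET3, RIOX1 and HIF1AN are low under AA in both genotypes, P4HA1, KDM3A and JMJD1C are high under AA in both, and ALKBH3 and ALKBH8 are high in deficient AA libraries alone.

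Most of the ALKBH enzymes, and FTO, remove alkyl groups from nucleic acids or modify transfer RNA. Of the 9 ALKBH and FTO members, 6 rose and 1 fell in deficient cells, and 4 rose and 2 fell in intact cells. In deficient cells ALKBH2, ALKBH6 and ALKBH7 did not keep a called rise with the length trend removed. ALKBH3 (ENSG00000166199; chromosome 11, 43880811 to 43920266, plus strand), which repairs alkylated DNA and RNA, had the largest difference between the genotypes among the tested members. It had 32.7, 36.5 and 30.6 CPM in deficient AA and 17.04, 15.8 and 15.3 CPM in deficient PBS libraries, 2.07-fold higher (1.05 ± 0.083, edgeR adjusted p = 1.86e-10). AA libraries of intact cells had 16.6, 17.1 and 17.5 CPM and intact PBS libraries 18.1, 15.0 and 18.03 CPM (95% interval of the log2 change -0.20 to 0.21). The deficient AA libraries stood alone, far above the other 9, and the difference was 1.04 ± 0.12 (edgeR adjusted p = 4.26e-07). ALKBH8, which modifies the wobble uridine of transfer RNA, averaged 38.6 ± 0.791 CPM under AA and 24.6 ± 1.63 under PBS in deficient cells, and 24.4 ± 0.853 and 24.9 ± 0.939 CPM in intact cells, a difference of 0.68 ± 0.091 (edgeR adjusted p = 2.91e-06). ALKBH2, the nuclear DNA repair member, rose by 0.22 ± 0.064 in deficient cells (-0.18 with the length trend removed) and changed by 0.13 ± 0.066 in intact cells, called with upper quartile scaling (0.19) and, with the sign turned, with the length trend removed (-0.19).

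ALKBH4, reported to demethylate actin, fell in both genotypes. It had 4.56, 4.71 and 4.46 CPM in deficient AA and 9.01, 7.71 and 7.25 CPM in deficient PBS libraries (-0.80 ± 0.13, edgeR adjusted p = 7.61e-06). Intact cells gave, under AA, 6.54, 6.84 and 6.47 CPM and intact PBS libraries 8.68, 8.16 and 7.81 CPM (-0.31 ± 0.12, edgeR adjusted p = 0.0276), and the groups did not overlap in either genotype. The intact call was lost without intact AA replicate 1 or 3 or intact PBS replicate 1 or 2 (adjusted p of 0.0536 to 0.0853). The difference of -0.49 ± 0.18 was lost without intact AA replicate 2, intact PBS replicate 3, deficient AA replicate 3 or deficient PBS replicate 1 (0.0526 to 0.0865). ALKBH6 and the mitochondrial ALKBH7 rose in both genotypes, ALKBH6 by 0.58 and 0.58, and ALKBH7 by 0.53 and 0.60. With the length trend removed ALKBH6 and ALKBH7 changed by 0.18 and 0.14 in deficient cells, neither called. In intact cells they then rose by 0.26 and 0.28, both still called. ALKBH1 fell in intact cells alone, by 0.31, and the effects did not pass the test of their difference.

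FTO and ALKBH5 are the known demethylases of the N6-methyladenosine mark in RNA. FTO averaged 42.3 ± 1.98 CPM under AA and 31.6 ± 2.05 under PBS in deficient cells, and 45.02 ± 2.60 and 29.01 ± 1.21 CPM in intact cells, a rise in both (0.42 ± 0.064 and 0.63 ± 0.064). ALKBH5 rose in intact cells by 0.19 ± 0.041 and changed by -0.080 ± 0.042 in deficient cells, with a called difference of -0.27 ± 0.058. Of 14 genes that write or read this mark, 3 rose and 10 fell in deficient cells (median -0.28), and 1 rose and 9 fell in intact cells (median -0.26). YTHDF3, a reader, fell by 0.95 and 0.45, and ZC3H13, a subunit of the writer complex, by 0.68 and 0.34.

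HIF hydroxylases mark HIF-alpha for destruction (EGLN1, EGLN2 and EGLN3) or block its coactivator (HIF1AN). HIF1AN (ENSG00000166135; chromosome 10, 100529072 to 100559998, plus strand) fell in both genotypes. It had 40.8, 41.7 and 39.2 CPM in deficient AA and 90.6, 88.6 and 87.7 CPM in deficient PBS libraries (-1.13 ± 0.048, edgeR adjusted p = 4.06e-15). The intact AA libraries held 49.6, 49.6 and 44.9 CPM and intact PBS libraries 87.3, 91.7 and 89.4 CPM (-0.90 ± 0.047, edgeR adjusted p = 3.01e-13). AA libraries of both genotypes lay below all of their PBS libraries. In FPKM the gap was narrower, 10.4 ± 1.67 against 15.3 ± 1.93 in deficient and 11.4 ± 0.480 against 17.5 ± 1.80 FPKM in intact cells. The called difference of -0.24 ± 0.067 turned to 0.049 with FPKM values and was then not called.

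EGLN1, the main HIF prolyl hydroxylase in most cells and itself a HIF target, averaged 164 ± 4.78 CPM under AA and 157 ± 4.87 under PBS in deficient cells, and 131 ± 0.356 and 173 ± 2.60 CPM in intact cells (SD, n = 3 each). It fell in intact cells (-0.41 ± 0.034, edgeR adjusted p = 7.97e-10). In deficient cells the groups overlapped and the change of 0.064 ± 0.034 was not called, though leaving out deficient AA replicate 3 or deficient PBS replicate 2 gave adjusted p of 0.0482 and 0.026, and it was called as a rise (0.077 to 0.25) with a low-count filter at 50, with library-size or upper quartile scaling, on FPKM values and with the length trend removed. The difference was 0.47 ± 0.048 (edgeR adjusted p = 6.55e-08). EGLN2 fell by 0.43 in intact cells. In deficient cells it averaged 45.4 ± 0.810 CPM under AA and 49.4 ± 2.29 under PBS, a call (edgeR adjusted p = 0.0379) that was lost without deficient AA replicate 1 or 2 or deficient PBS replicate 1 or 2 (0.0722 to 0.139). EGLN3 was near the detection limit. Its libraries had 0.288, 0.547 and 0.629 CPM in deficient AA, 0.613, 0.547 and 0.430 in deficient PBS, 1.20, 1.501 and 0.931 in intact AA and 0.378, 0.649 and 1.24 CPM in intact PBS, and neither AA effect was called. Without intact PBS replicate 3 the effect in intact cells was 1.20 (edgeR adjusted p = 0.0322).

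Beside the hydroxylases, 9 genes of the HIF machinery were followed, of which 4 rose and 4 fell in deficient cells, and 2 rose and 4 fell in intact cells. HIF1A rose in deficient cells (0.45 ± 0.032) and changed by -0.036 ± 0.032 in intact cells, a difference of 0.48 ± 0.046. VHL, which recognises hydroxylated HIF-alpha, fell by 0.38 in deficient and 0.95 in intact cells. Of 18 HIF targets outside the family, 13 rose and 2 fell in deficient cells (median 0.29; 37.0% of all tested genes rose), and 17 rose and none fell in intact cells (median 0.47; 34.5%). ADM rose by 1.64 and 1.80, VEGFA by 1.60 and 0.48, and NDRG1 by 0.31 and 1.53, while CA9, a gene of this list outside the rule for naming and named here after its values were seen, fell by 2.35 in deficient and rose by 1.298 in intact cells. Of the 9 dioxygenases that are described as HIF targets, 3 rose (KDM3A, KDM4C and P4HA1) and 3 fell (P4HA2, PLOD1 and PLOD2) in deficient cells. In intact cells 4 rose (KDM3A, P4HA1, PLOD1 and PLOD2) and 1 fell (EGLN1).

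Collagen hydroxylases work in the endoplasmic reticulum: P4HA subunits and the P3H enzymes on proline, PLOD enzymes on lysine. Of 8 tested members, 1 rose and 6 fell in deficient cells, and 3 rose and 3 fell in intact cells. PLOD2 (ENSG00000152952; chromosome 3, 146069440 to 146163653, minus strand), the telopeptide lysyl hydroxylase linked to stiff collagen cross-links, moved in opposite directions. It had 67.5, 70.1 and 71.1 CPM in deficient AA and 91.1, 95.0 and 97.8 CPM in deficient PBS libraries (-0.44 ± 0.047, edgeR adjusted p = 2.06e-08). In intact cells, AA libraries had 111, 115 and 122 CPM and intact PBS libraries 94.3, 90.9 and 100 CPM (0.29 ± 0.045, edgeR adjusted p = 6.52e-06). The deficient AA libraries were the lowest and the intact AA libraries the highest of the 12, and the difference was -0.74 ± 0.065 (edgeR adjusted p = 7.27e-09). On the log2(FPKM + 1) scale the rise in intact cells was 0.16 and not called (limma adjusted p = 0.0646). PLOD1 averaged 114 ± 3.61 CPM under AA and 126 ± 1.57 under PBS in deficient cells, and 152 ± 0.589 and 127 ± 4.84 CPM in intact cells, with the same pair of signs (difference -0.40 ± 0.052, edgeR adjusted p = 1.55e-06). With the length trend removed the change of PLOD1 in deficient cells was -0.048 and not called. PLOD3, which also glycosylates hydroxylysine, changed by 0.073 ± 0.043 in deficient cells (called with upper quartile scaling, 0.11, and library-size scaling, 0.13) and fell by 0.14 in intact cells. With upper quartile scaling the fall in intact cells was not called (edgeR adjusted p = 0.134).

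P4HA1, the main catalytic subunit of prolyl hydroxylase, averaged 132 ± 5.24 CPM under AA and 84.5 ± 2.35 under PBS in deficient cells, and 133 ± 3.17 and 85.1 ± 2.54 CPM in intact cells. It rose by 0.64 ± 0.040 and 0.64 ± 0.040, and the 95% interval of the difference ran -0.13 to 0.13. P4HA2 fell in deficient cells (-0.26 ± 0.073) and changed by 0.048 ± 0.071 in intact cells, with a called difference of -0.30 ± 0.10 that was lost without deficient AA replicate 3 (adjusted p = 0.0631). Among the prolyl 3-hydroxylases, P3H1 fell by 0.56 in deficient and 0.54 in intact cells and P3H2 by 0.20 and 0.33. P3H3 averaged 15.0 ± 0.616 CPM under AA and 23.8 ± 0.787 under PBS in deficient cells and fell, and it averaged 21.8 ± 1.41 and 22.9 ± 1.01 CPM in intact cells, a difference of -0.60 ± 0.10 (edgeR adjusted p = 6.16e-05). Of 11 tested partners in collagen folding and export, 2 rose and 7 fell in deficient cells, and 6 rose and 4 fell in intact cells. P3H4, the partner of P3H3, fell by 0.53 in each genotype, and PPIB, the cyclophilin in complex with P3H1, fell in deficient cells (-0.20) and rose in intact cells (0.23; difference -0.43 ± 0.040).

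ASPH, the most abundant member, averaged 286 ± 8.70 CPM under AA and 340.5 ± 10.1 under PBS in deficient cells, and 254 ± 11.6 and 337 ± 4.30 CPM in intact cells, a fall in both. OGFOD1 rose in deficient cells (0.21 ± 0.052) and changed by -0.078 ± 0.053 in intact cells, called on log2(FPKM + 1) values (-0.15) and with the length trend removed (-0.16; difference 0.29 ± 0.074). OGFOD2 had 16.2, 17.1 and 18.6 CPM in deficient AA and 11.2, 10.8 and 12.05 CPM in deficient PBS libraries (0.61 ± 0.10, edgeR adjusted p = 1.37e-05). AA libraries of intact cells had 12.2, 11.8 and 14.2 CPM and intact PBS libraries 14.2, 11.4 and 12.2 CPM, which overlapped (0.020 ± 0.10), and the difference was 0.59 ± 0.14 (edgeR adjusted p = 0.00213). TMLHE, the first enzyme of carnitine synthesis, had 20.7, 21.8 and 18.3 CPM in deficient AA and 16.7, 17.7 and 15.7 CPM in deficient PBS libraries (0.28 ± 0.087, edgeR adjusted p = 0.00703). It had 23.3, 19.8 and 20.2 CPM in intact AA and 18.8, 17.4 and 19.2 CPM in intact PBS libraries (0.19 ± 0.085, edgeR adjusted p = 0.047), a call that was lost without any one of intact AA replicate 1, the 3 intact PBS replicates, deficient AA replicate 1 or deficient PBS replicate 1 (0.0512 to 0.262). SHMT2, of the carnitine list, rose by 1.04 in deficient and 0.20 in intact cells, a difference of 0.84 ± 0.047.

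Of 13 tested genes on a further list of oxygenases and related genes outside the 51, 9 rose and 4 fell in deficient cells (median 0.46), and 6 rose and 3 fell in intact cells (median 0.28). HSPBAP1 rose by 1.26 and 0.56, PHYH, which hydroxylates phytanoyl-CoA in peroxisomes, by 0.57 and 0.47, and HPDL changed by -0.21 in deficient and 0.62 in intact cells. Of 11 enzymes that make or use 2-oxoglutarate or clear 2-hydroxyglutarate, 6 rose and 2 fell in deficient cells, and 5 rose and 1 fell in intact cells. IDH1, which makes 2-oxoglutarate in the cytosol, rose by 0.41 and 0.67. GOT1 rose by 1.44 in deficient and 0.30 in intact cells, and OGDH, which consumes 2-oxoglutarate in mitochondria, fell in deficient cells by 0.67 and changed by -0.020 in intact cells (difference -0.65 ± 0.044).

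**Figure D4:**
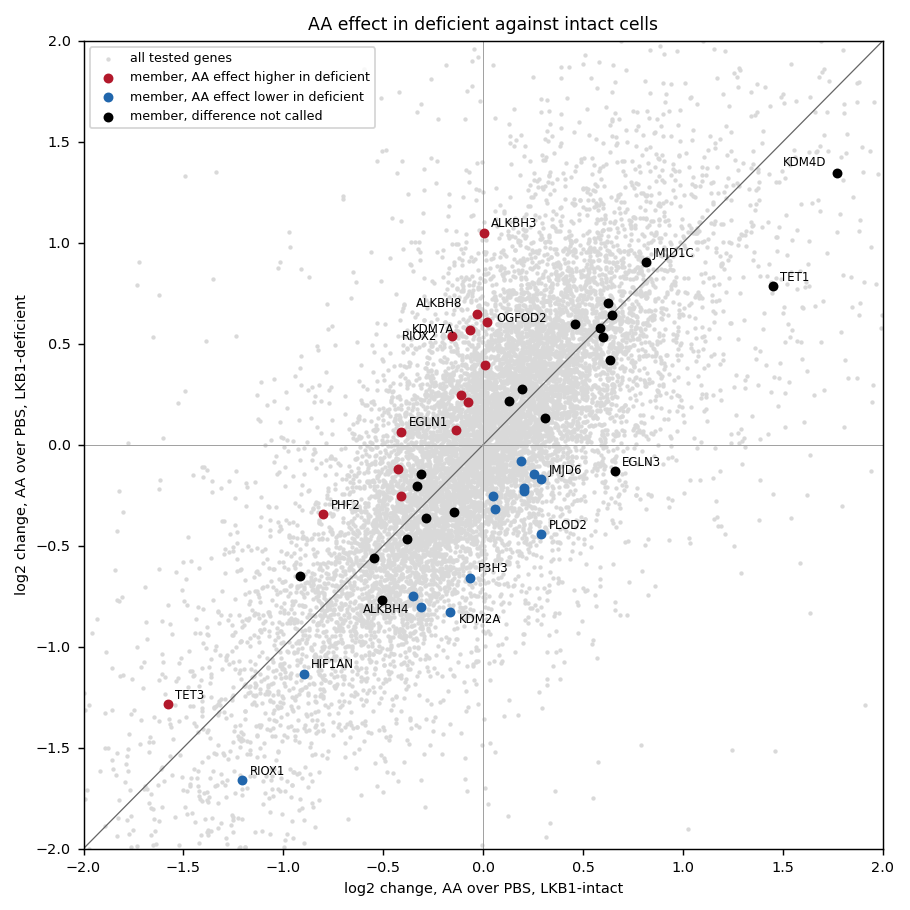
Log2 change of AA over PBS in LKB1-deficient cells (vertical) against LKB1-intact cells (horizontal) for 12718 tested genes (grey; axes end at 2 in both directions) and the tested members, coloured by the call on the difference; the diagonal marks equal effects. ALKBH3 lies farthest above it among members with a called difference, and PLOD2 and KDM2A farthest below.

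Length of transcript moved with the AA effect over all genes. Across the 12718 tested genes Spearman's rho between effective length and log2 change was -0.41 in deficient and -0.39 in intact cells, and across the 49 members, whose median effective length was 3150 nucleotides against 2577 for all genes, it was -0.19 and -0.12. These are descriptions across genes of the same libraries. With each library's length trend removed, 33 members were called in deficient cells (17 up, 16 down) and 38 in intact cells (21 up, 17 down), and the medians became 0.049 and 0.044. Signs of values called in at least 1 of the fits turned in deficient cells for TET2 (0.36), KDM3B (0.049, not called) and ALKBH2 (-0.18), and in intact cells for KDM2A (0.13), KDM2B (0.019, not called), KDM5A (0.090, not called), KDM7A (0.39), ALKBH2 (-0.19) and ALKBH3 (-0.20). TET2 then rose in both genotypes. Signs also turned for values called in neither fit, KDM4B (0.13) and ALKBH5 (0.053) in deficient cells and KDM4C (0.035), ALKBH8 (0.099) and OGFOD2 (-0.12) in intact cells. KDM2B (-0.12), PHF2 (-0.043), KDM5C (-0.031), KDM6B (-0.21), PLOD1 (-0.048), P3H2 (-0.077), OGFOD1 (0.084), ALKBH6 (0.18) and ALKBH7 (0.14) were no longer called in deficient cells, nor KDM5C and RIOX2 in intact cells. The fall of TET3 became -0.59 and -1.02, that of HIF1AN -0.83 and -0.66 and that of RIOX1 -1.65 and -1.19, the rise of JMJD1C 1.44 and 1.24, and the difference of ALKBH3 0.94, all still called. Whether the trend lies in the RNA or in its preparation was not tested. Values with the length trend removed are given for the dioxygenase members only. The counts, medians and changes of the other gene lists are without that removal.

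**Figure D5:**
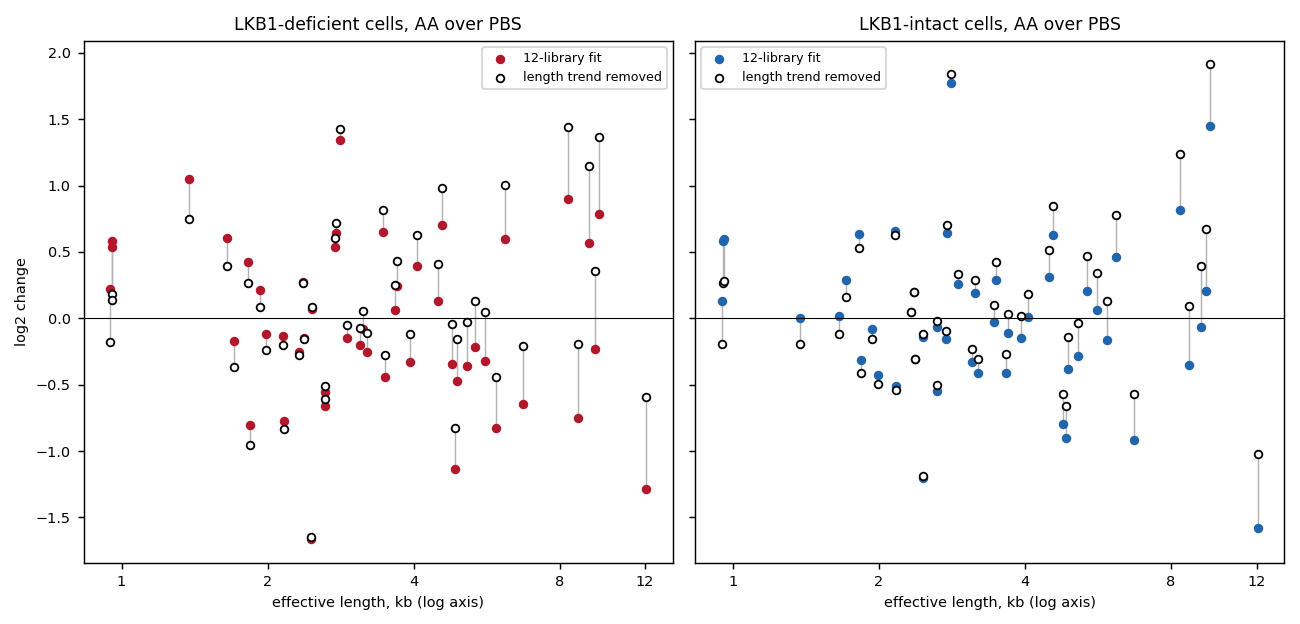
Log2 change of AA over PBS of the 49 tested members against effective transcript length (log axis, kilobases), in deficient (left) and intact cells (right); filled points are the fit of 12 libraries, open points the fit with the length trend removed, joined per member. Removal lifts the long transcripts, such as TET3 with an effective length of 12060 nucleotides, and lowers the short ones.

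Under PBS, none of the 49 tested members differed between deficient and intact cells by edgeR's test, where 0.275% of all tested genes were called (0.0550% higher, 0.220% lower, 0.0865% with a difference of at least 0.5 and 0.0472% of at least 1). Libraries did not overlap for 4 members, beside 13.4% of all tested genes. By the same test 2 members had an unadjusted p under 0.05. The closest was EGLN1, with 153, 162 and 155 CPM in deficient and 171, 176 and 174 CPM in intact PBS libraries (-0.15 ± 0.034, edgeR adjusted p = 0.0787). All 3 deficient libraries lay below the intact ones, and EGLN1 was called by DESeq2, without the low-count filter and with the length trend removed, 1 member in each case. For the 45 members that averaged at least 5 CPM, the 95% intervals of the log2 difference reached from -0.46 to 0.52, with a median SE of 0.060. A difference inside a member's own interval is not excluded, so the lack of a call does not show equal levels.

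Under AA the genotypes did differ. Between deficient and intact cells, 19 members were higher and 18 lower in deficient AA libraries, 37 of 49, where 59.0% of all tested genes were called (28.7% higher and 30.3% lower). Of these, 9 reached 0.5 on the log2 scale, beside 19.7% of all tested genes, 1 (EGLN3) reached 1, beside 4.64%, and libraries did not overlap for 19 members above and 20 below, beside 63.2%. The median log2 difference was -0.052, against -0.016 for all genes. KDM6B, ALKBH7 and FTO, not called here, were called with the length trend removed. On FPKM values the split was 18 higher and 11 lower, and over all called genes the higher share was 60.3% in place of 48.7%. These libraries are those of the AA comparisons, so the result follows the differences given above. ALKBH3 was higher in deficient cells (32.7, 36.5 and 30.6 against 16.6, 17.1 and 17.5 CPM; 0.96 ± 0.081, edgeR adjusted p = 1.28e-09), and so were KDM7A (0.86 ± 0.12), ALKBH8 (0.66 ± 0.062), RIOX2 (0.64 ± 0.057) and EGLN1 (0.33 ± 0.034). PLOD2 was lower (67.5, 70.1 and 71.1 against 111, 115 and 122 CPM; -0.74 ± 0.046, edgeR adjusted p = 8.22e-12), as were KDM2A (-0.65 ± 0.045), P3H3 (-0.54 ± 0.074) and PLOD1 (-0.42 ± 0.036). EGLN3 was lower in deficient cells (-1.31 ± 0.43, edgeR adjusted p = 0.0129), a call lost without deficient AA replicate 1 (0.0779) or intact AA replicate 2 (0.0626). P4HA1 showed -0.011 ± 0.038, with a 95% interval of -0.10 to 0.077.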

How the data were processed

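RNA of 12 libraries labelled A549, 3 in each of 4 groups taken from the genotype and treatment labels, was sequenced. The authors deposited estimated counts per gene and FPKM (values normalised to library size and transcript length) for each library. Per the submitters' processing notes, RSEM, StringTie 1.3.1, HISAT2 2.1.0, Bowtie2 2.2.8 and fastp 0.18.0 were among the tools, with no order or role stated. The sources used here name neither a genome build nor a strand setting for counting. Estimated counts were rounded to whole numbers and fitted over 12 libraries in 1 model with edgeR 4.0.16 in R 4.3.3 (TMM scaling, filterByExpr with a minimum count of 10, quasi-likelihood F test, Benjamini-Hochberg adjustment over 12718 genes, threshold 0.05). Genes that passed hold 99.97% of all counts. CPM values carry TMM scaling, and SE is the absolute log2 change over the root of F. Totals of 16055534 to 20306129 counts leave low genes such as TET1, KDM4D and EGLN3 imprecise; reads without molecular identifiers are not independent molecules, so this covers counting error only.

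The comparisons were AA against PBS within each genotype, the difference of these effects, and deficient against intact cells under PBS and under AA. The AA comparisons share no library with each other. Alternatives were limma 3.58.1 on log2(FPKM + 1) and log2(FPKM + 0.1), limma-voom, DESeq2 1.42.0, other scalings and filters, a replicate block, removal of each library's length trend by offsets, and leaving out each library in turn. The test was checked on simulated data with changes placed in deficient AA libraries. In the AA comparison of deficient cells it recovered 38% of log2 changes of 0.25, 76% of 0.5 and 92% of 1, and 8 of 160 calls were false. For the difference it recovered 18, 64 and 88%, and 6 of 140 calls were false. The simulation changed far fewer genes than were called here, so these shares need not hold for the data. Gene symbols followed the deposited tables; KDM4A, EGLN1 and EGLN2 had a second identifier, and the identifier with the larger count was used. Positions are from GENCODE 29 (GRCh38) and promoters from RefSeq (GRCh38.p14). RefSeq promoters of P4HA3, RIOX1, RIOX2, ASPH and JMJD6 were not matched. Values in every library are given for members called with an absolute log2 change of at least 0.8 in an AA comparison or 0.7 in another, and for the member of largest change in each family; other lists are named by up to 4 called genes of smallest p per comparison. The members and lists were chosen with earlier results of these data known.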

Additional observations from a re-analysis of the deposited data

Results flagged for a closer look

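The AA effect differed between LKB1-deficient and LKB1-intact cells by edgeR's test of the difference itself (deficient minus intact, log2, Benjamini-Hochberg adjusted p under 0.05) in 28 of 49 tested members, where 44.6% of all tested genes differed. Among chromatin enzymes the difference was -0.66 for KDM2A, -0.43 for TET2, -0.42 for KDM4B, -0.40 for KDM5A and -0.38 for KDM3B. It was 0.29 for TET3, 0.36 for KDM4C, 0.38 for KDM4A, 0.46 for PHF2 and 0.64 for KDM7A. Among the other JmjC enzymes it was -0.46 for JMJD6, -0.46 for RIOX1 and 0.69 for RIOX2. ALKBH members gave -0.49 for ALKBH4, -0.27 for ALKBH5, 0.68 for ALKBH8 and 1.04 for ALKBH3. HIF hydroxylases gave -0.24 for HIF1AN, 0.31 for EGLN2 and 0.47 for EGLN1. Collagen hydroxylases gave -0.74 for PLOD2, -0.60 for P3H3, -0.40 for PLOD1, -0.30 for P4HA2 and 0.21 for PLOD3, and the remaining hydroxylases 0.16 for ASPH, 0.29 for OGFOD1 and 0.59 for OGFOD2.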

How the results depend on the processing

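Of 5783 values of single members under an alternative, 5402 kept their direction and their side of the threshold, 169 lost and 58 gained a call, and 154 turned in sign, 143 of them called in neither fit and 11 in at least 1. Of these 11, removal of the length trend turned, in deficient cells, TET2 (0.36), KDM3B (0.049) and ALKBH2 (-0.18), and, in intact cells, KDM2A (0.13), KDM2B (0.019), KDM5A (0.090), KDM7A (0.39), ALKBH2 (-0.19) and ALKBH3 (-0.20). The other 2 were the difference of HIF1AN, which became 0.049 on log2(FPKM + 1) and 0.047 on log2(FPKM + 0.1). Why FPKM values differ from counts was not tested. Requiring an absolute log2 change of at least 0.5 left 22 members in deficient cells, 14 in intact cells, 8 in the difference and 9 between genotypes under AA. Between genotypes under PBS, DESeq2, no low-count filter and length removal each called 1 member.

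The members' median in deficient cells was -0.075 with library-size scaling, -0.074 and -0.077 on the FPKM scales and 0.049 with length removed. In intact cells it was 0.033 with upper quartile scaling, -0.098 and -0.11 on the FPKM scales and 0.044 with length removed. The median difference was 0.039 with library-size scaling and 0.072 and 0.077 on the FPKM scales. Between genotypes under AA it was 0.0045 with library-size scaling and 0.028 on both FPKM scales. Leaving out each library in turn gave 39 to 42 called members in deficient cells (median -0.18 to -0.084), 30 to 36 in intact cells (median -0.052 to -0.00020), 26 to 29 in the difference (median -0.071 to 0.027), 0 under PBS and 32 to 38 under AA. Of the calls, 26 of 41, 24 of 35, 18 of 28 and 26 of 37 held in every alternative run.

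Replicate numbers were used as a block in a further fit. Same-numbered libraries did not visibly deviate together (r of -0.094 to 0.054, 0 of 18 pairs over 0.1, against -0.053 to 0.083 for differently numbered pairs). These correlations cannot tell whether same-numbered libraries shared a culture or a preparation. The replicate block gave 40, 34, 28, 0 and 37 calls and lost EGLN2 in deficient cells (adjusted p = 0.0502) and TMLHE in intact cells (0.0504). Counts at this depth limit TET1, KDM4D, EGLN3 and the untested BBOX1 and P4HA3.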
